A study of Homo sapiens with 24 samples.

Results

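The genes described here encode the proteins of the cytosolic ribosome, the particle that makes protein from mRNA in the cytoplasm. Members were taken by symbol, as RPL, RPS, RPLP or RPSA names of the standard form, which gave 77 of the 34618 genes in the count table: 46 of the large (60S) and 31 of the small (40S) subunit. The naming rule used no measured value, although members were chosen with earlier results of these data known. All 77 members passed the filter on low counts that left 14887 genes to test. Fusion genes and paralogs (FAU, RPL36AL and others) fall outside the naming rule and are given separately.

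A ribosome contains a single copy of most of these proteins, so cells make them in matched amounts. Their mRNAs are among the most abundant and long-lived of a growing cell. Most begin with a C followed by an unbroken run of pyrimidines, the 5′ terminal oligopyrimidine (TOP) tract, through which the kinase mTOR and the RNA-binding protein LARP1 control translation and stability of the whole family. Actinomycin D blocks transcription, so after its addition a transcript that lasts longer than the average takes up a growing share of the RNA that is left.

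RNA was sequenced from HepG2, a human hepatocellular carcinoma line, in 24 libraries. Cells had been transduced with lentivirus and selected with puromycin at 1 ug/mL, and carried a short hairpin RNA against SETD2 (shSETD2), which encodes the enzyme that places 3 methyl groups on lysine 36 of histone H3, against METTL14 (shMETTL14), which encodes a subunit of the enzyme that writes N6-methyladenosine on mRNA, or a non-specific hairpin (shCtrl). Each of the 3 lines was harvested untreated (0 h) and after 1, 3 and 6 h with actinomycin D at 5 ug/mL, with 2 libraries per line and time. The sources used here name neither the hairpin sequences nor how many hairpins or clones stand behind a line, and each knockdown is 1 line. The 2 libraries of a group are biological replicates per the series' design text; p-values rest on the spread within these pairs.

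Libraries held 18.3 to 31.4 M counts (median 24.0 M). SETD2 stood at 90.4 and 81.8 CPM (counts scaled to library size by the TMM method) in untreated shSETD2 cells, against 131 and 129 CPM in shCtrl. METTL14 stood at 15.01 and 13.9 CPM in shMETTL14, against 29.3 and 30.0 CPM in shCtrl. All 8 hepatocyte genes checked, among them ALB and APOA1, were detected in every line. Their summed level at 0 h was 100344 CPM in shSETD2 and 59694 CPM in shMETTL14, against 51896 CPM in shCtrl. Fibroblast genes summed to between 13.2 and 59.8 CPM and blood genes to between 2.10 and 5.44 CPM over all libraries, with DCN and PTPRC at 0 counts throughout. Of the 5 genes checked for HEK293T, the virus producer line, only LIN28B passed the filter on low counts. The 5 summed to 106 to 145 CPM in shSETD2, with none of them at 0 counts. They summed to 81.7 to 106 CPM in shMETTL14 and 139 to 185 CPM in shCtrl, with NEFM and NEFL at 0 counts in both of these lines. Their part in the results was not tested.

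Sequence around the annotated start was available for 62 of the 77 members in RefSeq (GRCh38.p14). It is shown for members at the top of the level order (RPS6, RPL19), members with large changes between the lines (RPL13A, RPS18, RPLP0) and members with few counts (RPL36A, RPS10, RPL41, RPS28), because the pyrimidine tract is what the family shares. The windows are chr9:19380227-19380256 (minus strand) for RPS6, chr17:39200303-39200332 (plus) for RPL19, chr19:49487588-49487617 (plus) for RPL13A, chr6:33272055-33272084 (plus) for RPS18 and chr12:120201102-120201131 (minus) for RPLP0. Those of the members with few counts are chrX:101390991-101391020 (plus) for RPL36A, chr6:34426060-34426089 (minus) for RPS10, chr12:56116613-56116642 (plus) for RPL41 and chr19:8321476-8321505 (plus) for RPS28. Each line reads 5′ to 3′ along the gene, with 20 bases before the start and 10 from the start on, and capitals mark the longest unbroken run of C and T that touches the 10 bases on each side of the start.
RPS6: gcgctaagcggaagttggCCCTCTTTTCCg
RPL19: ggcccgagcgagCTCTTTCCTTTCgctgct
RPL13A: ccctgcgacaaaaCCTCCTCCTTTTCCaag
RPS18: gatatcgcgtcacttccgCTCTCTCTTCCa
RPLP0: ggcacgcgcgggcgcgaggCCCTTCTCTCg
RPL36A: ttccgtttgcctcgcggTTTCTTTCTTTCC
RPS10: cagcaccgcgcatgCTCCTTCCTTTCCagc
RPL41: gtagacggaacttcgCCTTTCTCTCggcct
RPS28: ggctctccccgaagcacgtgaCTCCTCTCC

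The run was 9 to 14 bases long in these windows and lay across the start in all of them but RPS28, where it began at the second base. For a gene with several annotated starts, the window shown was picked for the C start and tract, then for the longest run. The windows shown therefore favour the tract. In the counts that follow, a gene has a feature if any of its windows does, and the 62 members had 77 windows. A run of at least 8 was found in 52 of the 62 members (83.9%), against 18.3% of the 27305 genes with a window, and the median longest run was 11 bases in the members and 5 in all genes. A C at the start followed by at least 4 pyrimidines was found in 46 of 62 members (74.2%), against 5.14% of all genes. Other letters were searched from 250 bases before to 50 after the start, on both strands. The ETS-type core CCGGAAG was present in 35.5% of members and 12.2% of all genes. TATAAA, the TATA box, was present in 8.06% and 14%. A match describes these letters only. Members with the C start and tract and the other 16 had a like median difference between shMETTL14 and shCtrl at 0 h (log2 fold change -0.50 in the 46 and -0.56 in the 16).

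Levels before the drug spread over more than 2 orders of magnitude within the family and kept nearly the same order in every line. In RPKM (counts scaled to exon length and library size, the authors' values), RPS12 stood highest at 486 in shSETD2, 309 in shMETTL14 and 428 in shCtrl (means of 2 libraries). RPS6, the substrate of the S6 kinases, followed at 363, 268 and 384 in the same lines, and RPL19 and RPS21 were also among the top 5 in shCtrl. RPKM divides by a gene's total exon length, which can far exceed that of its mRNA. The lengths were 767 and 631 bases for RPS12, and 5979 and 625 bases for RPL23. In CPM the order differed, with RPS12 at 287 in shCtrl against 910 for RPS6 and 544 for RPL23. In single libraries RPS12 read 484 and 489 RPKM in shSETD2 and 317 and 301 RPKM in shMETTL14, against 390.4 and 466 RPKM in shCtrl. In shCtrl the RPS6 libraries (386 and 382 RPKM) lay just under the lower RPS12 library, so the order of the first 2 rests on the spread of RPS12. RPL19 (301 and 319.5 RPKM) and RPS21 (266 and 313 RPKM) overlapped. Among the lowest were RPS26 (3.22), RPS10 (1.92), RPL7 (1.74) and RPL36A (1.57 RPKM in shCtrl). Median RPKM in shCtrl was 75.6 over the large and 75.3 over the small subunit genes. Counts summed over the 46 large subunit genes were 1.65 to 1.76 times those summed over the 31 small subunit genes in each of the 24 libraries. This ratio includes the difference in the number of genes. The rank correlation of the members' RPKM with that in shCtrl was 0.996 for both knockdown lines over the 77 members, a description of genes counted in the same libraries.

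A break in the levels ran through the family. Averaged over the 24 libraries, 63 members stood between 64.5 CPM (RPS7) and 1223 CPM (RPS6), and 14 at or under 27.8 CPM (RPL39). The dividing line of 50 CPM was set after these values were seen. The lower 14 include RPL7, RPL9, RPL17, RPL21, RPL36A, RPL39 and RPL41 of the large subunit and RPS3A, RPS10, RPS26, RPS27 and RPS28 of the small one, several of them core proteins that every ribosome holds. Much of their mRNA sequence is shared with transcripts of other annotated genes. A median 27.0% of its 50-base stretches were found in no other gene's transcripts (13 genes with a transcript in GENCODE 29), against 74.4% in the upper 63. The other gene can be a readthrough gene at the same locus: RPS10 overlaps RPS10-NUDT3, RPL17 overlaps RPL17-C18orf32 and RPL36A overlaps RPL36A-HNRNPH2. Values ran from 5.94% (RPS10) to 64.4% (RPS28) in the lower members and from 20.3% (RPL10) to 100% (RPL38) in the upper ones, so they overlap. Over the 76 members with a value, Spearman's rho between CPM in shCtrl and this share was 0.593. None of the sources used here says how reads that match several genes were counted, and its part in the low values was not tested.

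**Figure D1:**
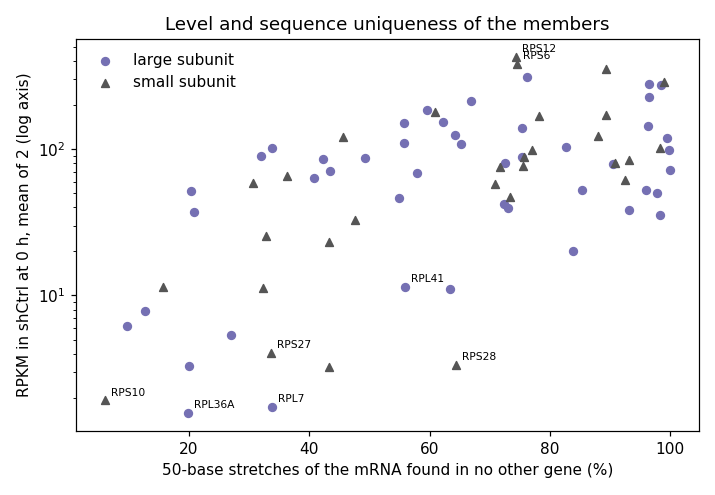
Each point is a member; the horizontal axis gives the share of 50-base stretches of its mRNA found in no other gene and the vertical axis its mean RPKM in untreated shCtrl cells (2 libraries, log axis), with large and small subunit genes marked. Members of low uniqueness such as RPS10 (5.94%, 1.92 RPKM) and RPL36A (19.7%, 1.57 RPKM) lie at the lower left, while RPL41 and RPS28 are low at over 50% uniqueness.

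In untreated shMETTL14 cells the family was lower as a whole. Against shCtrl, 72 of 77 members fell and 0 rose (edgeR's quasi-likelihood test, adjusted p under 0.05), where 25.1% of all tested genes fell and 23.1% rose. At an unadjusted p under 0.05, by DESeq2 and by limma 0 rose as well. The median log2 fold change was -0.52 over the members and -0.01 over all genes. Both subunits took part, with 42 of 46 large subunit genes (median -0.50) and 30 of 31 small subunit genes (median -0.54) lower. In 76 of 77 members both shMETTL14 libraries lay under both shCtrl libraries, which held for 40% of all genes. Ribosomal protein genes took 1.58% and 1.51% of all counts in shMETTL14, against 2.05% and 2.21% in shCtrl. A count is a share of its library, and in bulk RNA fewer cells of a type and less RNA per cell cannot be told apart.

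RPL19 (ENSG00000108298; chromosome 17, 37356536 to 37360980, GRCh37), a 60S protein that reaches across to the 40S subunit, changed most. It stood at 314 and 303 CPM in shMETTL14, against 623 and 659 CPM in shCtrl. Both shMETTL14 libraries lie far under both shCtrl libraries, and under the 682 and 660.2 CPM of shSETD2. The log2 fold change was -1.05 (SE 0.0493, adjusted p = 8.17e-14) against shCtrl, a fall that passed under all 15 other settings, and -1.12 (SE 0.0494, adjusted p = 1.84e-14) against shSETD2. RPS10 (-0.88), RPSA (-0.76), RPS2 (-0.70) and RPS27A (-0.69) were the next largest falls. That of RPS10 rests on few reads, 46 and 43 raw counts in shMETTL14 against 82 and 65 in shCtrl. RPSA, also known as the laminin receptor, read 52.7 and 50.9 CPM in shMETTL14 and 87.8 and 87.1 CPM in shCtrl, with no overlap. RPS27A, made as a fusion with ubiquitin, read 111 and 109 CPM in shMETTL14 and 177 and 179.9 CPM in shCtrl.

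Members of the 60S stalk, which recruits translation factors, fell by similar amounts. RPLP0 (chromosome 12, 120634489 to 120639038), the stalk's base, read 226 and 224 CPM in shMETTL14 against 302 and 305 CPM in shCtrl (log2 fold change -0.43, SE 0.0577, adjusted p = 1.71e-06). RPLP1 (-0.57, adjusted p = 0.00762) and RPLP2 (-0.54, adjusted p = 0.00455), its 2 acidic partners, had wider errors (SE 0.160 and 0.141). RPL3, at the peptidyl transferase centre, fell by 0.59 and RPL10, which is added late in 60S assembly, by 0.68. RPL5 and RPL11 join 5S rRNA in the particle that can bind MDM2 when ribosome assembly is disturbed. RPL5 read 388 and 376 CPM in shMETTL14 against 512 and 556 CPM in shCtrl, and RPL11 345 and 325 CPM against 455 and 491 CPM, so neither pair overlapped (log2 fold changes -0.48 and -0.50).

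On the 40S side RPS6 (chromosome 9, 19375713 to 19380252) read 619.9 and 601 CPM in shMETTL14 against 915 and 904 CPM in shCtrl (log2 fold change -0.58, SE 0.0625, adjusted p = 8.81e-08). RPS3, at the mRNA entry channel, fell by 0.55, RPS19, the gene most often mutated in Diamond-Blackfan anaemia, by 0.60, and RPS4X, the X-linked copy of a gene that has a Y-linked partner, by 0.42. The smallest called fall was that of RPL15 (-0.24), singled out after its value was seen. Members that did not pass included RPL7 (-0.32, edgeR adjusted p = 0.0509), RPL39 (-0.35, adjusted p = 0.0590), RPL41 (-0.25, adjusted p = 0.211) and RPL36A (-0.20, adjusted p = 0.310), all of them among the 14 with few counts.

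Related genes outside the naming rule were also lower in shMETTL14. FAU, whose product is a ribosomal protein cut from a ubiquitin-like fusion, fell by 0.33 (adjusted p = 0.00384). Of 5 tested paralogs 4 fell, among them RPL22L1 (-0.76) and RPL36AL (-0.45), while RPS27L did not pass (-0.06, adjusted p = 0.334). Of 16 other tested mRNAs described as carrying a TOP tract 15 fell and 0 rose (median -0.48), including those of the poly(A)-binding protein PABPC1 (-0.57) and the initiation factor EIF4B (-0.51). Of 31 ribosome biogenesis genes 29 fell (median -0.58), including the pseudouridine synthase DKC1 (-0.73) and nucleolin, NCL (-0.64). Of 74 mitochondrial ribosomal protein genes 45 fell and 2 rose (median -0.26), MRPL45 (-0.55) and MRPS5 (-0.51) having the smallest p. These lists were chosen with earlier results of the data known, and their counts stand beside the 25.1% of all genes that fell.

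**Figure D2:**
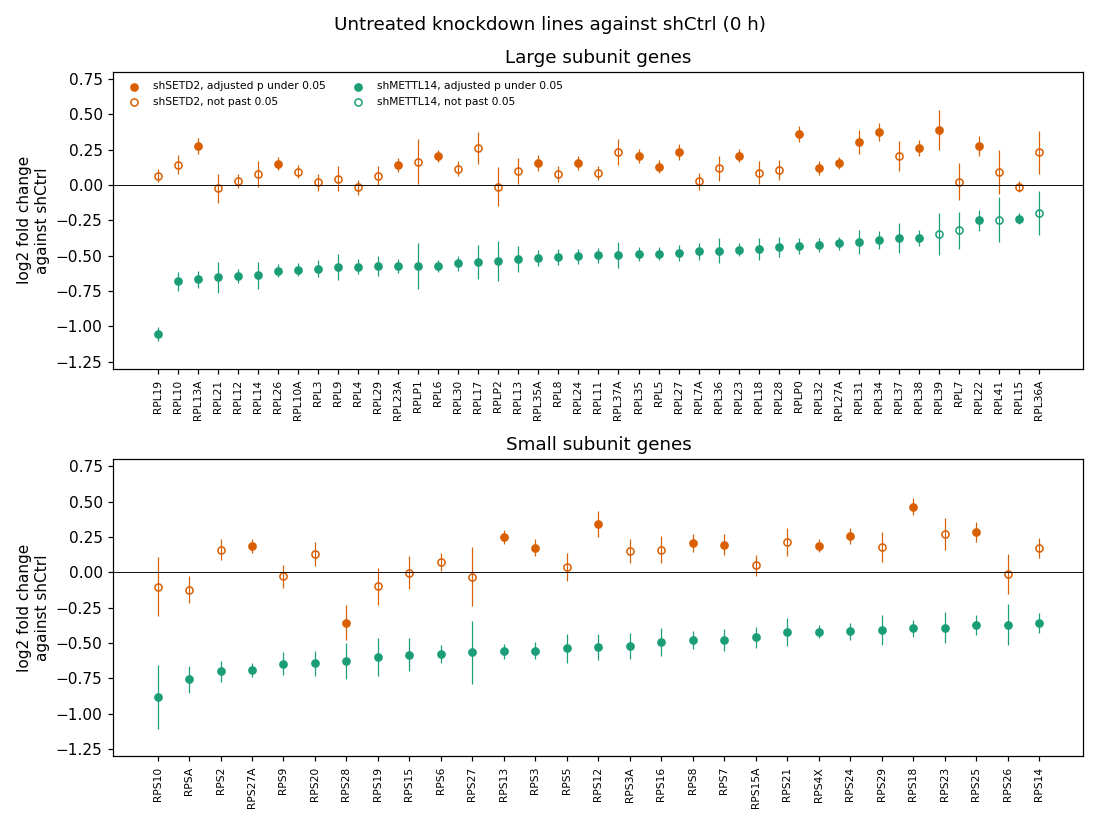
Log2 fold change against shCtrl before the drug for the members named in the plot, with large subunit genes above and small subunit genes below, ordered by the shMETTL14 value; bars are standard errors, filled points passed adjusted p under 0.05. Every shMETTL14 value lies under 0, RPL19 lowest at -1.05, while shSETD2 values run from -0.36 (RPS28) to 0.46 (RPS18).

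The shSETD2 line gave smaller differences that depend on the scaling. Against shCtrl, 28 members rose and 1 fell (edgeR's quasi-likelihood test), where 21.6% of all tested genes rose and 18.9% fell. The median log2 fold change was 0.14 over the members and 0.02 over all genes, with 18 of 46 large (median 0.12) and 10 of 31 small subunit genes (median 0.16) higher. Scaled by library size alone, the median of all genes shifts to -0.14 and that of the members to -0.01, and 3 members rise and 5 fall. Relative to the all-gene median the members stood 0.06 to 0.17 higher over the 16 settings run, with 54 to 67 members above it. Without replicate 1 of untreated shCtrl 3 members rose, without its replicate 2 14, and without replicate 1 of untreated shSETD2 18. Their share of all counts, 2.12% and 2.11% in shSETD2, lay inside the 2.05% and 2.21% of shCtrl. Summed hepatocyte genes took 100344 CPM in these cells against 51896 CPM in shCtrl, and their part in the difference was not tested.

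RPS18 (ENSG00000231500; chromosome 6, 33239787 to 33244287), a protein of the 40S head, rose most. It read 407 and 407 CPM in shSETD2, against 269.5 and 320.3 CPM in shCtrl. The shSETD2 libraries agree closely and the shCtrl libraries differ from each other by more than the rest of the pairs of this gene at 0 h (log2 fold change 0.46, SE 0.0598, adjusted p = 1.34e-06). RPL34 read 153 and 149.5 CPM in shSETD2 against 109 and 124 CPM in shCtrl (0.38, adjusted p = 4.80e-05), and RPLP0 399 and 379 CPM against 302 and 305 CPM (0.36, adjusted p = 2.52e-05). These 3 genes passed the test under all 15 other settings, with log2 fold changes from 0.20 to 0.50. RPS18 overlaps VPS52, so its count is uncertain where strand was not used. RPL39 (0.39, adjusted p = 0.0354), a very short protein of the exit tunnel, had the second largest rise but lost its call under 12 of 15 settings, and RPS12 (0.34, adjusted p = 0.00514), the fifth in size, under 4.

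RPS28 fell in shSETD2, a call lost under 4 of 15 settings (4.75 and 5.03 CPM in shSETD2 against 6.05 and 6.41 CPM in shCtrl; log2 fold change -0.36, adjusted p = 0.0287), at a few CPM and in a gene that overlaps KANK3 and NDUFA7. RPL19 was near its control, at 682 and 660.2 CPM against 623 and 659 CPM (0.07, adjusted p = 0.293). RPL5 (0.13, adjusted p = 0.0294), RPS3 (0.17), RPS27A (0.19) and RPS4X (0.19) also rose, but lost their calls under 12 (RPL5), 10 (RPS3), 5 and 5 of 15 settings, library size alone (0.0169 for RPS3, 0.0311 for RPS27A, 0.0324 for RPS4X) and the fit without replicate 1 of untreated shCtrl among them. In contrast, RPL3, RPL10, RPL11, RPLP1, RPLP2, RPS6, RPS19, RPSA and RPL41 did not pass (log2 fold changes between -0.12 and 0.16). Signs of RPL5 and RPL19 turn under library-size scaling. In 58 of 77 members both shSETD2 libraries lay above both shCtrl libraries, which held for 39.3% of all genes. FAU did not pass (-0.02). Of the TOP mRNAs 4 rose and 1, EIF3A, fell (-0.40), and of the 31 ribosome biogenesis genes 3 rose and 13 fell (median -0.13), RRP12 (-0.85) and DKC1 (-0.42) with the smallest p. Mitochondrial ribosomal protein genes gave 12 rises and 6 falls of 74 (median 0.01).

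The knockdown lines were also set directly against each other. In shMETTL14 74 of 77 members were lower than in shSETD2 and 0 higher (0 also at an unadjusted p under 0.05, by DESeq2 and by limma), where 29.2% of all tested genes were lower and 23% higher. The median was -0.65 over the members and -0.03 over all genes, with 45 of 46 large and 29 of 31 small subunit genes called. Leaving out a library gave 70 to 71. Both shMETTL14 libraries lay under both shSETD2 libraries in all 77 members, which held for 43.2% of all genes. Below RPL19 the largest differences were RPL13A (-0.94), at 241 and 241 CPM in shMETTL14 against 459.6 and 468 CPM in shSETD2, RPS27A (-0.88), RPS12 (-0.87) and RPS2 (-0.86). Those that did not pass included RPL41 (-0.34, adjusted p = 0.0783) and RPS28 (-0.27, adjusted p = 0.0964). Comparisons at 0 h share libraries, so their values for a member are not independent.

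**Figure D3:**
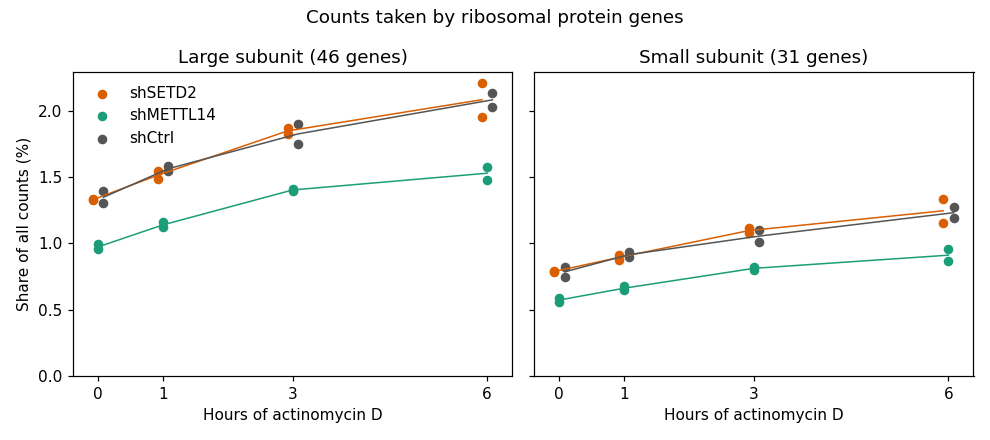
Share of all counts taken by the 46 large (left) and 31 small subunit genes (right) in each library (points) and as group means (lines), against hours of actinomycin D. Shares grow in all lines, and the shMETTL14 libraries lie below all others of the same time.

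After transcription was blocked, ribosomal protein mRNAs gained on the rest of the RNA in every line. Their share of counts reached 3.54% and 3.11% in shSETD2, 2.53% and 2.34% in shMETTL14 and 3.40% and 3.22% in shCtrl at 6 h. The slope of log2 level on hours rose for 68 of 77 members in shSETD2, 68 in shMETTL14 and 68 in shCtrl, where 34.2%, 38.2% and 37.8% of all tested genes rose. Falls were called for 2, 1 and 1 members, where 36.2%, 34.8% and 33.2% of all genes fell. Median slopes were 0.155, 0.176 and 0.158 log2 per h, against -0.0013, 0.0105 and 0.0132 over all genes. Scaled by library size alone these medians are 0.106, 0.105 and 0.0988 log2 per h, against -0.0502, -0.0606 and -0.0454 over all genes, so the size of a slope depends on the scaling. Relative to the all-gene median the members' median is 0.156, 0.165 and 0.144 log2 per h with library size alone. In each line 41 of 46 large and 27 of 31 small subunit genes rose, with medians of 0.154 and 0.155 in shSETD2, 0.175 and 0.177 in shMETTL14 and 0.158 and 0.156 in shCtrl. A positive slope is a gain relative to the other RNA and does not give a half-life, since the count table holds 0 spike-in entries.

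All 63 members above 50 CPM rose in all 3 lines, within a narrow band: 0.108 to 0.190 log2 per h in shSETD2, 0.135 to 0.212 in shMETTL14 and 0.118 to 0.178 in shCtrl. With library size alone all 63 also rose in all 3 lines, by 0.0584 to 0.141, 0.0634 to 0.140 and 0.0595 to 0.119 log2 per h. RPS6 read 1973 and 1839 CPM at 6 h against 959 and 956 CPM at 0 h in shSETD2, 1421 and 1369 against 619.9 and 601 in shMETTL14, and 1908 and 1773 against 915 and 904 in shCtrl. Every 6 h library lay above every 0 h library of its line (TMM slopes 0.162, 0.188 and 0.165 log2 per h, SE 0.0095 each; from the deposited RPKM 0.113, 0.117 and 0.106). RPL19 kept its deficit as it gained, with 640.5 and 603 CPM in shMETTL14 against 1304 and 1221 CPM in shCtrl at 6 h and slopes of 0.162 and 0.159 (0.0909 and 0.1005 from RPKM). The steepest were RPL14 in shMETTL14 (0.212), RPS2 in shSETD2 (0.190) and RPL39 in shCtrl (0.180). The 8 hepatocyte genes, whose secreted products include albumin, had median slopes of the same size (0.156, 0.180 and 0.162), as did FAU with slopes of 0.167, 0.198 and 0.152, whereas mitochondrial ribosomal protein genes had medians of 0.0206, 0.0186 and 0.0217.

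Of the 14 members with few counts 5 rose in each line, among them RPL17, RPL39, RPS3A and RPS28. These calls depend on the scaling: with library size alone RPL17, RPS3A and RPS28 passed in no line, and of the 14 members 1, 2 and 2 rose and 5, 5 and 6 fell in shSETD2, shMETTL14 and shCtrl. RPL7, RPL9, RPL21, RPL41, RPS10 and RPS27 did not pass in any line with TMM, although RPL7, RPL9 and RPL21 fell in all 3 with library size alone, and RPS26 fell in shSETD2 (-0.0991 log2 per h, adjusted p = 0.00449; 0.00548 over 1 to 6 h alone) and did not pass in shMETTL14 or shCtrl, where it fell with library size alone. RPL36A (chromosome X, 100645812 to 100651105), which shares its locus with the readthrough gene RPL36A-HNRNPH2, fell in all 3 lines. It read 6.37 and 6.26 CPM at 0 h and 2.56 and 2.42 CPM at 1 h in shSETD2, 5.31 and 4.02 then 1.47 and 1.54 in shMETTL14, and 5.53 and 5.24 then 1.45 and 2.05 in shCtrl. Most of the drop came in the first hour (slopes -0.323, -0.223 and -0.279 log2 per h, adjusted p = 8.05e-08, 1.77e-05 and 1.00e-06), and over 1 to 6 h alone the fall passed in shSETD2 and did not in shMETTL14 or shCtrl (adjusted p = 0.951 and 0.168). Its close paralog RPL36AL, counted at 46.7 to 67.9 CPM at 0 h, had slopes of -0.0513, -0.0373 and -0.00505, of which the first 2 passed.

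**Figure D4:**
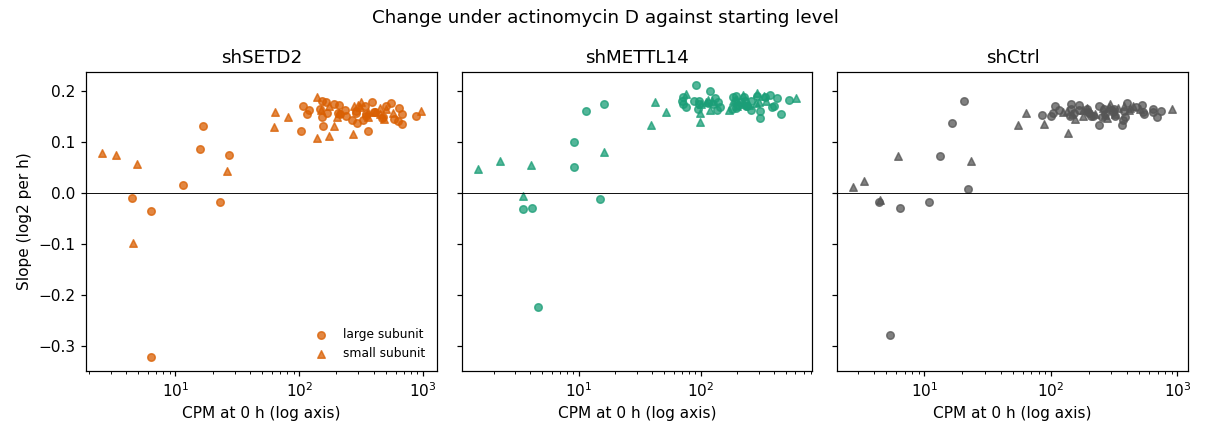
Slope under actinomycin D (log2 per h) against mean CPM at 0 h (log axis) for 76 members, in shSETD2, shMETTL14 and shCtrl. Members above 50 CPM form a band between 0.108 and 0.212, while those with few counts scatter lower and RPL36A lies lowest in each line.

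Differences in slope between the lines were few. Against shCtrl, 2 members had lower slopes in shSETD2 and 0 higher, where 6.45% and 1.49% of all genes did (0 higher also at an unadjusted p under 0.05 and by limma, 2 by DESeq2). They were RPS13 (-0.0444 log2 per h, SE 0.0115, adjusted p = 0.0193) and RPL39 (-0.106, SE 0.0308, adjusted p = 0.0395). RPS13 read 262 and 284 CPM at 6 h against 178 and 169.5 CPM at 0 h in shSETD2, and 271 and 293 against 143 and 149 in shCtrl, so the pairs overlap at 6 h and not at 0 h. RPL39 at 6 h read 29.4 and 42.1 CPM in shSETD2, a wide pair that overlaps the 38.2 and 47.4 CPM of shCtrl. Neither call held under RLE scaling, library size alone, DESeq2 or limma on RPKM, or without either shCtrl 0 h library. RPS13 overlaps PIK3C2A.

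No member's slope in shMETTL14 differed from that in shCtrl by edgeR's quasi-likelihood test, with 0 higher and 0 lower, where 1.85% and 3.35% of all genes were. At an unadjusted p under 0.05 8 were higher and 0 lower, and limma called 0. Of the 77 differences 72 were positive (median 0.0179 log2 per h, median SE 0.0152; -0.00316 over all genes), and other settings called up to 29 members higher (without replicate 1 of untreated shCtrl), 24 without replicate 1 of untreated shMETTL14, 10 without replicate 2 of untreated shMETTL14 and 10 without that of untreated shCtrl, 9 with the GC trend removed and 3 by DESeq2. The gap in level between shMETTL14 and shCtrl had a median log2 of -0.52 at 0 h, -0.45 at 1 h, -0.35 at 3 h and -0.39 at 6 h, with both shMETTL14 libraries lower in 76, 73, 73 and 72 of 77 members, against 40%, 36.8%, 37.3% and 37.2% of all genes. Against shSETD2, 5 members had higher slopes in shMETTL14 and 0 lower (0 also at an unadjusted p under 0.05, by DESeq2 and by limma), where 6.4% and 3.2% of all genes did: RPS13 (0.0448), RPL22 (0.0531), RPL27 (0.0420), RPL12 (0.0489) and RPL39 (0.101 log2 per h). RPL12 read 205 and 199 CPM at 6 h against 98.4 and 95.2 CPM at 0 h in shMETTL14, and 268 and 267 against 154 and 155 in shSETD2. That count ranged from 0, without replicate 2 of untreated shMETTL14, to 27 with the GC trend removed.

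**Figure D5:**
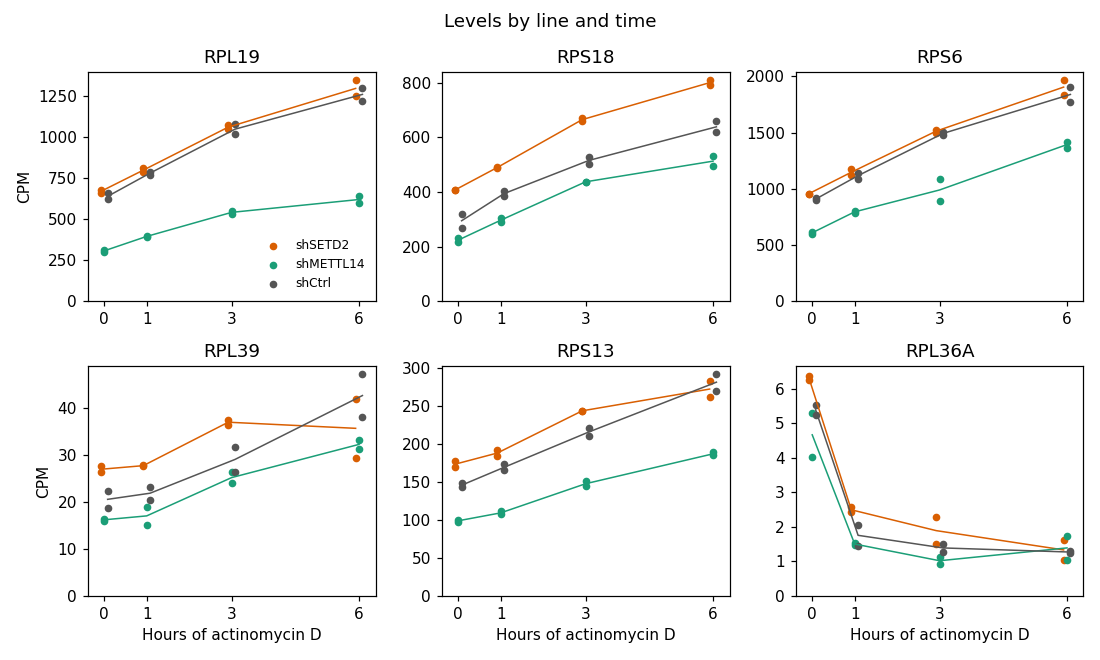
CPM of 6 members against hours of actinomycin D, each library as a point and group means as lines. RPL19 stays low in shMETTL14 throughout, RPS18 is high in shSETD2 from 0 h on, the RPS13 libraries of shSETD2 and shCtrl overlap at 6 h, and RPL36A drops within the first hour in all lines.

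A half-life was given for few of these genes. The authors' deposited table lists 7772 genes, 8 of them members: RPL7, RPL9, RPL21, RPL36A, RPL41, RPS10, RPS26 and RPS28, all from the 14 with few counts. In the authors' deposited table the median half-life of these 8 was 7.02 h in shSETD2 and 7.15 h in shMETTL14, against 11.4 h in shCtrl, where all listed genes had 4.13, 4.31 and 6.02 h. Among these 8 members RPL36A had the shortest half-life in the authors' deposited table, at 2.18 h in shSETD2, 2.69 h in shMETTL14 and 2.85 h in shCtrl. For RPS28 the authors' deposited table gives 13.8 h in shSETD2 and 12.4 h in shMETTL14 but 1496 h in shCtrl, where its level was 6.05 and 6.41 CPM at 0 h and 7.93 and 7.33 CPM at 6 h, while its deposited RPKM were 3.26 and 3.48 at 0 h and 3.35 and 3.12 at 6 h and overlap. The 69 members without an entry include all 63 above 50 CPM. RPKM fell over time in all 3 lines for 6 members, and all 6 are listed in the authors' deposited table, as are 2 others; over all tested genes 7020 of the 8016 with such falls are listed.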

How the data were processed

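The authors deposited raw gene counts with RPKM values beside them. In all 24 libraries RPKM equalled the count divided by exon length and table total, to within 3.37e-07%. The submitters' processing notes name TopHat, cutadapt, HTSeq 0.6.1p1 and GRCh37. No source used here states settings, annotation release or use of strand. Half-lives in hours are the authors' deposited values. ERCC RNA was added per the labels' protocols, but the table holds 0 such entries.

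Counts were fitted with edgeR 4.0.16 in R 4.3.3 (TMM, filterByExpr over the 12 groups, robust quasi-likelihood, two-sided, Benjamini-Hochberg at 0.05), with all 24 libraries in 1 model with a mean per group, 12 residual degrees of freedom and a biological coefficient of variation of 5.04%. Each adjusted p is from that test over all 14887 tested genes, and SE is the log2 difference divided by the root of F. Slopes are least squares of group means on hours. CPM are counts scaled by TMM; 3 counts correspond to 0.0955 to 0.164 CPM.

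On simulated counts 65% of changes of 0.5 log2 and 82% of changes of 1 log2 were recovered for shMETTL14 against shCtrl at 0 h (14887 genes, 100 changed genes of each size). For the slope difference of these lines, 64% of changes of 0.1 and 75% of changes of 0.2 log2 per h were recovered. The members' median difference of 0.0179 log2 per h is smaller than both sizes. Replicate numbers were not used to pair the samples in this fit. Alternatives were RLE and library-size scaling, TMM without the members, other filters, DESeq2 1.42.0, limma 3.58.1 on log2(RPKM + 1) and log2(RPKM + 0.1), removal of GC and exon-length trends, other slope definitions and leaving out each library. Sequence uniqueness used GENCODE 29 transcripts and 50-base stretches (76 of 77 members); start-site sequence is from RefSeq (GRCh38.p14), and gene coordinates are GRCh37.

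Members and lists were chosen with earlier results of these data known. Named in each comparison were 15 members in all cases (the stalk, RPL3, RPL5, RPL10, RPL11, RPL19, RPL41, RPSA, RPS3, RPS4X, RPS6, RPS19 and RPS27A), the 5 largest rises and falls past the threshold, the members that did not pass where these were 10 or fewer, the 5 highest and lowest RPKM, FAU and the paralogs, and 2 genes of each other list by smallest p. Results for some genes are not reported here.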

Additional observations from a re-analysis of the deposited data

Results flagged for a closer look

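Slopes under actinomycin D differed between lines by the test of the difference itself for a few members. In shSETD2 against shCtrl the slope difference was -0.0444 log2 per h for RPS13 and -0.106 for RPL39. In shMETTL14 against shSETD2 it was 0.0448 for RPS13, 0.0531 for RPL22, 0.042 for RPL27, 0.0489 for RPL12 and 0.101 for RPL39. These 5 of 77 members stand beside 6.4% of all tested genes with a higher slope, and the 2 before them beside 6.45% with a lower one. Of 29 alternatives RPS13 and RPL39 lost the first call under 12 and 20, and RPS13, RPL22, RPL27, RPL12 and RPL39 the second under 11, 18, 13, 4 and 22; library size alone and both limma fits left 0 calls. Before the drug 74 members were lower in shMETTL14 than in shSETD2 by the direct test, where 29.2% of all tested genes were. With 2 libraries per group, no library could be singled out within a group.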

How the results depend on the processing

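Falls in shMETTL14 at 0 h and gains under actinomycin D kept direction and most calls. The median fall was -0.66 to -0.43 over the alternatives, while median gains shrank to 0.106, 0.105 and 0.0988 log2 per h with library size alone. Leaving out 1 library gave 71 to 74 falls against shCtrl and 66 to 68, 67 to 70 and 66 to 68 gains in shSETD2, shMETTL14 and shCtrl. Rises in shSETD2 at 0 h numbered 17 with RLE factors, with a mean of at least 5 CPM and with DESeq2, 3 (with 5 falls) with library size alone and with limma on log2(RPKM + 1) and on log2(RPKM + 0.1), and 3 to 22 without 1 library; falls numbered 0 with the GC trend removed and 0 to 1 without 1 library. Slopes called lower in shSETD2, shMETTL14 and shCtrl numbered 5, 5 and 6 with library size alone and 6, 5 and 6 with either limma fit. They numbered 4, 3 and 3 for 6 h minus 0 h, and 1, 0 and 0 over 1 to 6 h. With a mean of at least 5 CPM they numbered 0. That filter leaves out RPL36A and RPS26 (means of 2.53 and 3.04 CPM), the members called lower in the main fit, so it does not test them. For the slope difference of shSETD2 and shCtrl, 6 were higher with a mean of at least 5 CPM and 2 with DESeq2; lower ones numbered 0 with RLE, library size, 5 CPM, DESeq2, both limma fits and 1 to 6 h, 1 for 6 h minus 0 h and 4 with GC removed; without 1 library 0 to 6 were higher and 0 to 3 lower. Between shMETTL14 and shCtrl, 1 was higher with RLE and with TMM without the members, 24 with 5 CPM, 3 with DESeq2, 9 with GC removed, 2 with the replicate block and 0 to 29 without 1 library. Between shMETTL14 and shSETD2, 1 was higher with RLE, DESeq2 and 1 to 6 h, 0 with library size and both limma fits, 2 with 5 CPM, 9 with exon length and 27 with GC removed, 11 with the replicate block and 0 to 17 without 1 library.

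Over all tested genes, same-numbered libraries of 2 groups had deviations that correlated at -0.0842 to 0.202 (median 0.0179, 66 pairs, 9 of them over 0.1). At 6 h the members' share of counts was higher in replicate 1 in all 3 lines (3.54% and 3.11% in shSETD2, 2.53% and 2.34% in shMETTL14, 3.40% and 3.22% in shCtrl). It was lower in replicate 1 of shCtrl at 0 h (2.05% and 2.21%) and of shMETTL14 at 3 h (2.21% and 2.22%). Whether replicate numbers mark a shared batch was not tested. The block changed no other count by more than 1.5 times. Of single members, RPL5 in shSETD2 at 0 h turned to -0.0286 with library size alone and -0.0271 and -0.0272 with the limma fits, RPL19 there to -0.0899, -0.0891 and -0.0894 and to -0.00112 with a mean of at least 5 CPM; without 1 library they gave -0.0246 to 0.135 and -0.0679 to 0.0888. The RPS26 slope in shSETD2 turned to 0.00548 over 1 to 6 h. Of 2134 recomputed values for 113 named results, 1958 kept direction and side of the threshold, 156 lost the threshold, 10 crossed it and 10 turned. The causes were not tested. Levels of a few CPM limit what can be said of RPL36A, RPL7, RPS10, RPS26, RPS27 and RPS28.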

Other observations

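Of 16 tested genes of the mTOR pathway and of RNA-binding proteins that act on TOP mRNAs, 9 fell and 2 rose in shMETTL14 against shCtrl at 0 h (median log2 fold change -0.24), where 25.1% and 23.1% of all tested genes did. In shSETD2 3 fell and 1 rose (median -0.00322), where 18.9% and 21.6% of all genes did. EIF4EBP1, a translation repressor that mTOR phosphorylates, read 32.4 and 32.7 CPM in shMETTL14 and 47.4 and 45.3 CPM in shSETD2, against 75.3 and 75.4 CPM in shCtrl (log2 fold changes -1.21 and -0.70, adjusted p = 9.77e-11 and 5.21e-07). LARP1 read 333 and 335 CPM in shMETTL14 and 443 and 449 CPM in shSETD2, against 505 and 502 CPM in shCtrl (-0.59 in shMETTL14, adjusted p = 1.88e-10). EIF4EBP2 rose in shSETD2 (0.39, adjusted p = 2.46e-07).

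METTL3, the partner of METTL14, fell in shMETTL14 (-0.38, adjusted p = 1.15e-06). METTL14 read 38.0 and 38.6 CPM in shSETD2 against 29.3 and 30.0 CPM in shCtrl, a rise of 0.37 on the log2 scale (adjusted p = 0.00260).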
